A study of Homo sapiens with 6 samples.

Results

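The mitochondrial ribosomal proteins, 78 of the 58735 genes measured, were described in RKO, a human line established from a colorectal carcinoma. A protein-coding gene was included if its symbol begins with MRPL or MRPS followed by a digit, a choice that used no expression value. There were 49 MRPL symbols and 29 MRPS symbols, on 21 chromosomes. The study compared 3 libraries of control cells (Vector) with 3 libraries of cells that overexpressed the long non-coding RNA LOC101927668 (LOC_OE), to find genes that differ when this RNA is raised. Per the study's methods, the full-length LOC101927668 transcript was delivered by lentivirus in a plenti6 plasmid, and the transduced cells were selected with puromycin into stable lines. The labels call the controls negative controls and name no other agent, and all cells were grown in DMEM with serum. Each group has 3 biological replicates per the submitters' design text. Whether these came from separate transductions is not given in the sources used here, so the p-values measure the spread between these libraries.

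Mitochondria translate their own messages on a ribosome that is distinct from the cytosolic one. Its 2 rRNAs, MT-RNR1 and MT-RNR2, are encoded in the mitochondrial genome, whereas every protein of it is encoded in the nucleus, made in the cytosol and imported. The small subunit binds mRNA and decodes it. The large subunit joins amino acids and releases the peptide at an exit tunnel that lies against the inner membrane. The products are core subunits of the respiratory chain and of ATP synthase. Some of the proteins have a counterpart in bacterial ribosomes and others exist only in mitochondria. Of the 78 genes, 51 encode large subunit proteins, of which 30 have a bacterial counterpart and 21 are specific to mitochondria. A further 26 encode small subunit proteins, of which 16 have a bacterial counterpart and 10 do not. MRPS36 was left out of both groups, since later work placed its protein in the 2-oxoglutarate dehydrogenase complex. The symbol does not always give the subunit, and the proteins of MRPS18A and MRPS30 belong to the large one.

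The libraries held between 15008842 and 18410231 reads on genes. The RNA meant to be raised, LOC101927668, was counted at 1, 1 and 0 reads in the controls. In LOC_OE it reached 231, 270 and 276 reads, at least 103-fold higher against a floor of 3 reads per control library. LOC_OE replicate 1 stood apart from the other 2 LOC_OE libraries: its correlation with them over all genes tested was 0.967 and 0.962, against 0.982 between those 2 and 0.982 to 0.983 among the Vector libraries. It also had the largest sum of FPKM over all genes, 360434, against 264150 to 310012 in the other 5 libraries. The counts of members and of each further list are therefore given with and without it. The epithelial markers EPCAM, KRT8, KRT18 and CDX2 were detected, CDH1 was listed at 0 in all libraries, and KRT19, VIL1 and KRT20 were at or near 0. The 9 haematopoietic, fibroblast and endothelial markers were at or near 0 in all libraries, and none reached the level needed for the test.

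Most of these genes were well expressed. Levels are given as FPKM, the fragments on a gene scaled by the length of the gene and the size of the library, so that genes can be compared per length. The median over the members of the mean FPKM of the 6 libraries was 19.1, against 4.75 over the 16061 genes that entered the test. A mean of at least 10 FPKM was reached by 57 members, and 9 were under 5 FPKM. The 5 highest were MRPL41, MRPL37, MRPS34, MRPL15 and MRPS2, and the 5 lowest were MRPS24, MRPL46, MRPL38, MRPL53 and MRPS33. The highest member tested exceeded the lowest by 81.7-fold, although their products enter one particle in fixed numbers.

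**Figure D1:**
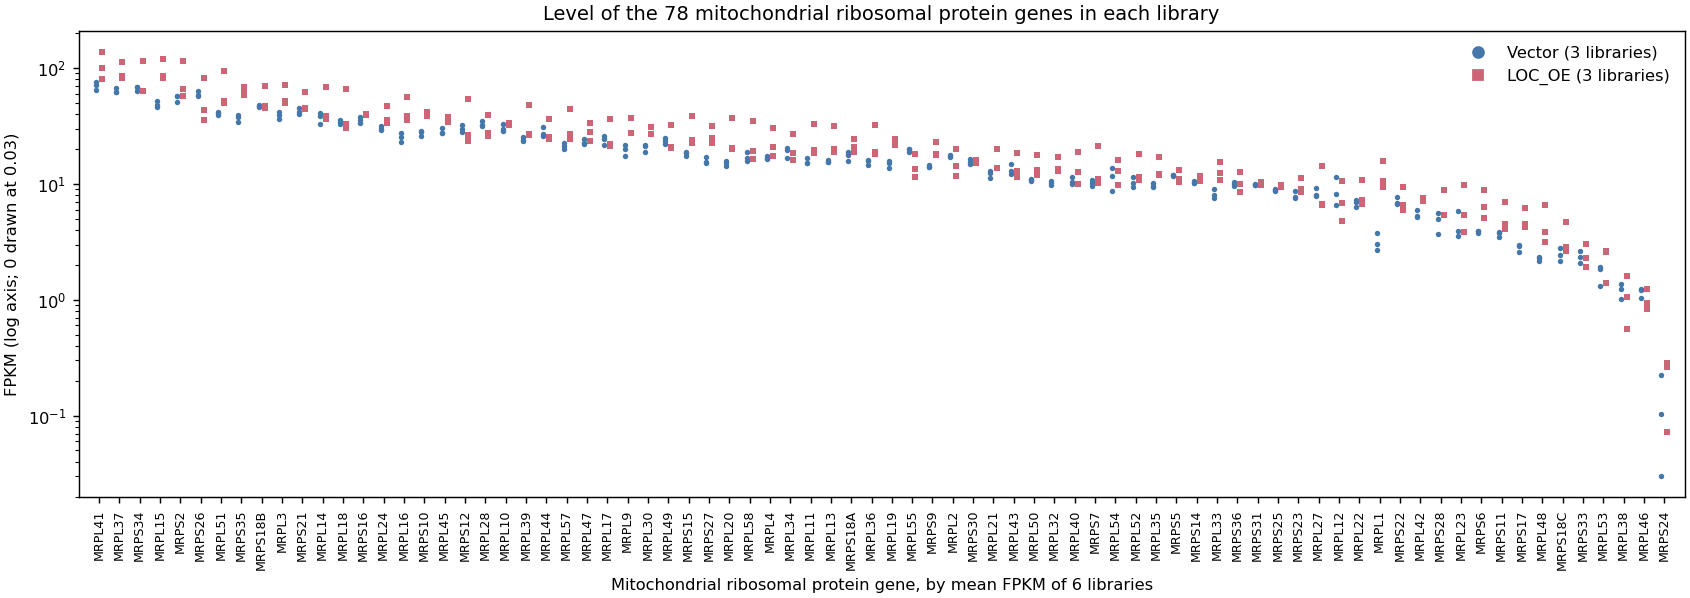
FPKM (log axis) of the 78 mitochondrial ribosomal protein genes, ordered along the horizontal axis by their mean, with circles for the 3 Vector libraries and squares for the 3 LOC_OE libraries. From MRPL41 at a mean of 88.3 FPKM the levels fall gradually to a few genes near 1 FPKM, and MRPS24 stands alone at 0.158 FPKM.

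MRPL41, a mitochondria-specific protein of the large subunit, had 71.5, 75.3 and 65.3 FPKM in the Vector libraries and 137, 99.9 and 80.9 FPKM in the LOC_OE libraries. All 3 LOC_OE values were above all Vector values, but they spread widely, and the difference did not pass the test (log2 fold change 0.54, adjusted p = 0.0914). MRPL37, also specific to mitochondria, had 67.8, 62.5 and 61.7 FPKM against 114, 86.1 and 82.4 FPKM and passed (0.54, adjusted p = 0.0402). MRPS34, a mitochondria-specific protein of the small subunit, had 69.2, 68.5 and 63.0 FPKM against 116, 64.1 and 63.1 FPKM. Its groups overlapped, with LOC_OE replicate 1 alone above the controls. MRPS2, the counterpart of bacterial S2, had 57.6, 57.1 and 51.5 FPKM against 115, 66.1 and 57.8 FPKM (log2 fold change 0.45, adjusted p = 0.242).

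At the other end, MRPL46 had 1.03, 1.25 and 1.21 FPKM in Vector and 1.23, 0.931 and 0.836 FPKM in LOC_OE. MRPL38 had 1.02, 1.23 and 1.38 FPKM against 1.6, 1.06 and 0.557 FPKM. MRPS33 had 2.64, 2.08 and 2.35 FPKM against 3.01, 2.28 and 1.90 FPKM. In each of these the groups overlapped. MRPS24, a small subunit protein with a bacterial counterpart, was the only member below the level needed for the test, with 11, 0 and 5 reads in Vector against 12, 3 and 10 in LOC_OE. Of its exon bases, 23.2% are also exon bases of another gene, most of them of the readthrough gene URGCP-MRPS24. Among all 78 members, 41 share some exon bases with another gene, the median being 1.20% of bases, and the largest share is that of MRPL12 (68.2%). MRPS18A, at a mean of 19.4 FPKM, shares 47.0%, MRPL53 (1.95 FPKM) 45.2% and MRPL38 (1.14 FPKM) 41.1%. Over the members, level and the share of exon bases in common had a rank correlation (Spearman) of -0.289. The part of this sharing in the low values was not tested. Processed pseudogenes are numerous for this family, but the 75 in the table held 1100 reads against 426021 for the members (0.258%). They held the largest share for MRPS31, where their reads came to 17.7% of those of the gene, and for MRPL45 (9.79%).

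The sequence around the start sites was compared with that of all genes. Promoters of 300 bases, 250 before and 50 after the start, were available from RefSeq (GRCh38.p14) for 69 of the 78 members. Each was searched on both strands for a few motifs. The YY1 motif AAGATGGC was present in 20 of the 69 (29%) and in 3.03% of the 27305 promoters of all genes. Those 27305 were not filtered by gene type, whereas all members are protein-coding, and the part of this in the differences was not tested. The ETS motif CCGGAAGT was present in 11 (15.9%), against 4.44% of all. The core letters GCATGCGC of the NRF1 motif were in 6 (8.70%), against 3.27%, and the full NRF1 palindrome of 10 letters was in 1 (1.45%), against 1.36%. The E-box CACGTG, which reads the same on both strands, was in 6 (8.70%), against 7.43%. The letters GGGCGG of an Sp1/KLF site were in 42 (60.9%), against 44.6%, and TATAAA was in 2 (2.90%), against 12%. The NRF1 core lies inside the palindrome, so those counts overlap.

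Most YY1 matches lay just after the start. There were 21 matches in the 20 promoters, and 15 of them lay after the start, all on the gene's own strand, with their first base 7 to 36 bases downstream of it. The letters AAGATGGC contain ATG, the triplet of a start codon, and a match this close to the start can be part of the coding sequence. Windows of 30 bases, 5′ to 3′ on the gene's strand with the motif in capitals, are shown for the 4 members with this placement that passed the test of expression below, followed by MRPL16, which passed with an ETS match, and MRPL37, which passed with an E-box.
MRPS27, chr5:72320206-72320235 (minus strand): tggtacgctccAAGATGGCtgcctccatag
MRPS10, chr6:42217834-42217863 (minus strand): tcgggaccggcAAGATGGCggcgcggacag
MRPL42, chr12:93467511-93467540 (plus strand): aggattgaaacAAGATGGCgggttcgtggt
MRPL45, chr17:38297170-38297199 (plus strand): tttgcgggaacAAGATGGCagcccccatac
MRPL16, chr11:59810767-59810796 (minus strand): gagtgaacacaACTTCCGGccccactgagc
MRPL37, chr1:54199985-54200014 (plus strand): tgcgcttcacctCACGTGaggattttccag
In MRPL16 the capitals are the ETS letters as read on the opposite strand. A match is a description of letters and not a site of binding. The YY1 letters were as frequent in the members that passed the test and had a promoter entry (5 of 17, 29.4%) as in all members with an entry.

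Between the groups, 18 of the 77 members tested rose in LOC_OE (limma, adjusted p under 0.05), which is 23.4% of them, where 10.7% of all genes tested rose. No member fell by the same test, where 9.74% of all genes fell. At an unadjusted p under 0.05, 28 were higher and 1 was lower, where 3111 and 2744 of the 16061 genes were. Limma voom on the recovered reads found 20 members higher and 0 lower, where 1938 and 2164 of 21079 genes were. With a fold change of at least 1.5 also required, 8 members were higher and none was lower, against 4.63% and 5.58% of all genes. These are bulk libraries put on a relative scale. A change of these RNAs per cell, in the mix of cells or in the other RNA therefore cannot be told apart. The log2 fold change was above 0 in 69 members and below 0 in 8, with a median of 0.33 over the members and 0.019 over all genes. When the libraries were instead scaled to the same sum of FPKM, which moved the median of all genes to -0.18, the counts became 9 higher and 3 lower, and the members stood 0.26 above the median of all genes, where they stood 0.31 above it on the deposited scale. The split over all genes became 713 higher and 3163 lower, from 1712 higher and 1565 lower.

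The 18 genes that rose were spread over both subunits. They were 12 of 51 large subunit members (median log2 fold change 0.34) and 6 of 25 small subunit members tested (0.24). Those with a bacterial counterpart were MRPL1, MRPL3, MRPL9, MRPL15, MRPL16, MRPL19, MRPL30, MRPL32 and MRPL33 of the large subunit, and MRPS6, MRPS9, MRPS10 and MRPS17 of the small one. The mitochondria-specific ones were MRPL37, MRPL42, MRPL45, MRPS27 and MRPS35. Mitochondria-specific proteins of the small subunit had the lowest median of the 4 classes, 0.14, and small subunit proteins with a bacterial counterpart had a median of 0.37. A difference between these classes was not tested.

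MRPL1 (ENSG00000169288, chromosome 4, 77862520 to 77952790, plus strand), the counterpart of the bacterial protein that forms the mobile L1 stalk, changed most. It had 3.76, 3.05 and 2.71 FPKM in the Vector libraries and 15.7, 10.6 and 9.46 FPKM in the LOC_OE libraries. The lowest LOC_OE library was well above the highest control. Means were 3.17 ± 0.534 and 11.9 ± 3.34 FPKM (SD, n = 3), a 3.75-fold difference, and 3.15-fold with LOC_OE replicates 2 and 3 alone. The log2 fold change was 1.61 (SE 0.19, adjusted p = 0.00685), and the adjusted p stayed at or under 0.0473 with any single library left out.

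MRPL15 (ENSG00000137547, chromosome 8, 54135210 to 54147901, plus strand), a large subunit protein with a bacterial counterpart, was among the 5 most abundant members and had the second largest rise. It had 51.9, 46.3 and 48.5 FPKM in Vector and 120, 86.3 and 81.7 FPKM in LOC_OE. Means were 48.9 ± 2.78 and 96.0 ± 20.8 FPKM (SD, n = 3), a 1.96-fold difference (log2 fold change 0.94, SE 0.16, adjusted p = 0.0130). LOC_OE replicate 1 was the highest library, and the groups did not overlap. MRPS35 (ENSG00000061794, chromosome 12, 27710773 to 27756295, plus strand), a mitochondria-specific protein of the small subunit, had 38.1, 34.2 and 39.5 FPKM against 69.1, 66.3 and 59.2 FPKM. Here the LOC_OE libraries lay close together, with means of 37.3 ± 2.76 and 64.8 ± 5.07 FPKM and a 1.74-fold difference (log2 fold change 0.78, SE 0.099, adjusted p = 0.00747). MRPL1 and MRPS35 were the only members that passed in all 6 fits that each left out 1 library.

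**Figure D2:**
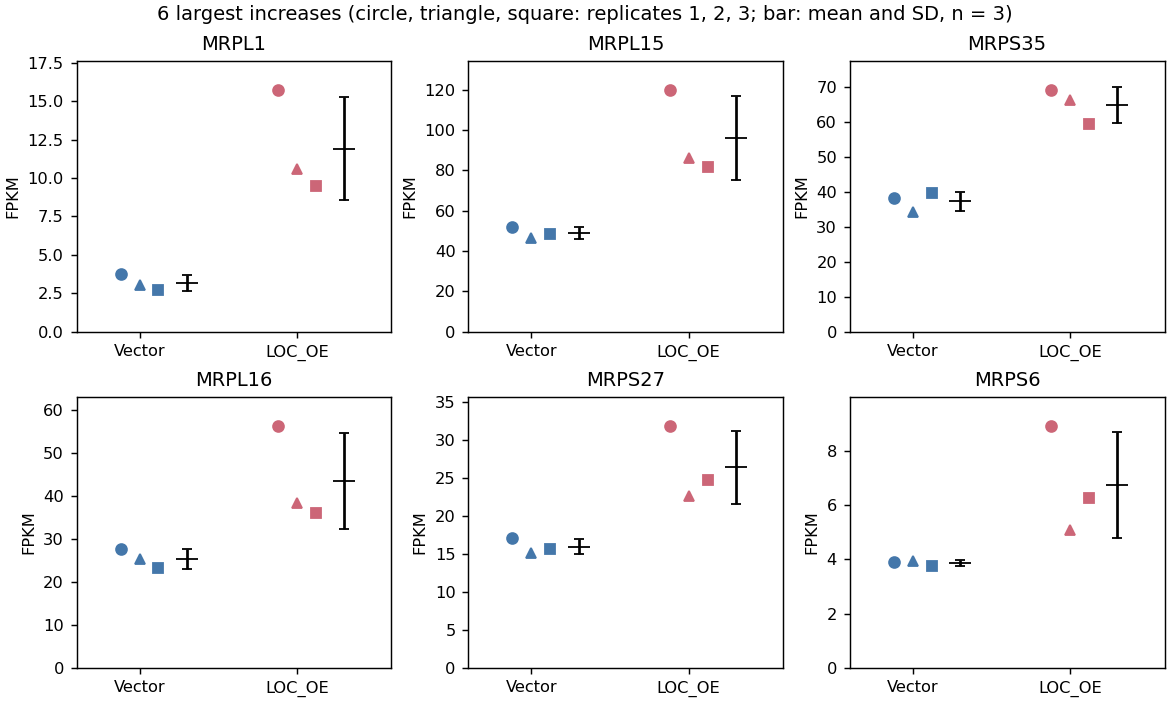
FPKM per library of the 6 members with the largest increases among those that passed, with circles, triangles and squares for replicates 1, 2 and 3 and bars for the mean and SD (n = 3). In all 6 the LOC_OE libraries lie above every Vector library, and in each of them LOC_OE replicate 1 is the highest, by little in MRPS35 (69.1 against 66.3 FPKM) and by more in MRPL15 (120 against 86.3 FPKM).

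MRPL16 (ENSG00000166902, chromosome 11, 59806135 to 59810872, minus strand) is the counterpart of a bacterial protein that lies near the peptidyl transferase centre. It had 27.6, 25.2 and 23.1 FPKM in Vector and 56.3, 38.3 and 35.9 FPKM in LOC_OE (log2 fold change 0.73, SE 0.18, adjusted p = 0.0349). MRPS27 (ENSG00000113048, chromosome 5, 72219409 to 72320646, minus strand), a pentatricopeptide repeat protein of the small subunit, had 17.1, 15.1 and 15.6 FPKM against 31.8, 22.6 and 24.7 FPKM (0.68, SE 0.14, adjusted p = 0.0207). MRPS6 (ENSG00000243927, chromosome 21, 34073224 to 34143034, plus strand), the counterpart of bacterial S6, had 3.91, 3.96 and 3.75 FPKM against 8.92, 5.08 and 6.27 FPKM (0.64, SE 0.18, adjusted p = 0.0482). In all 3 the groups did not overlap, and LOC_OE replicate 1 was the highest library. The other 12 members that passed had log2 fold changes between 0.34 and 0.63.

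LOC_OE replicate 1 was the highest of the 3 LOC_OE libraries in 69 of the 77 members (89.6%), where this held for 45.2% of all genes tested. In the lists given below it held for 65% of translation factors, 78.6% of assembly genes and 92.3% of transcription genes. It held for 81.5% of cytosolic ribosomal proteins and 100% of the subunits without an MRP symbol. The median difference of the members from the Vector mean, on log2(FPKM + 1), was 0.68 in LOC_OE replicate 1, 0.17 in LOC_OE replicate 2 and 0.11 in LOC_OE replicate 3. The medians over all genes were 0.032, 0.013 and 0.011. All 3 libraries were thus above the controls at the median, by very different amounts. The members are more abundant than most genes, and abundant genes as a whole lay higher in LOC_OE. For all 3983 genes with a mean of 10 to 40 FPKM the medians were 0.28, 0.11 and 0.076, and for the 45 members in that range they were 0.66, 0.17 and 0.15. Above 40 FPKM they were 0.49, 0.21 and 0.15 over 974 genes and 0.87, 0.27 and 0.14 over 12 members. From 2 to 10 FPKM they were -0.029, 0.011 and 0.013 over 6090 genes and 0.71, 0.17 and 0.094 over 17 members. Below 2 FPKM they were -0.19, -0.11 and -0.082 over 5014 genes and 0.24, -0.16 and -0.23 over 3 members. In each range the members exceeded other genes of their level most in LOC_OE replicate 1. The part of level in the counts above was not tested.

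**Figure D3:**
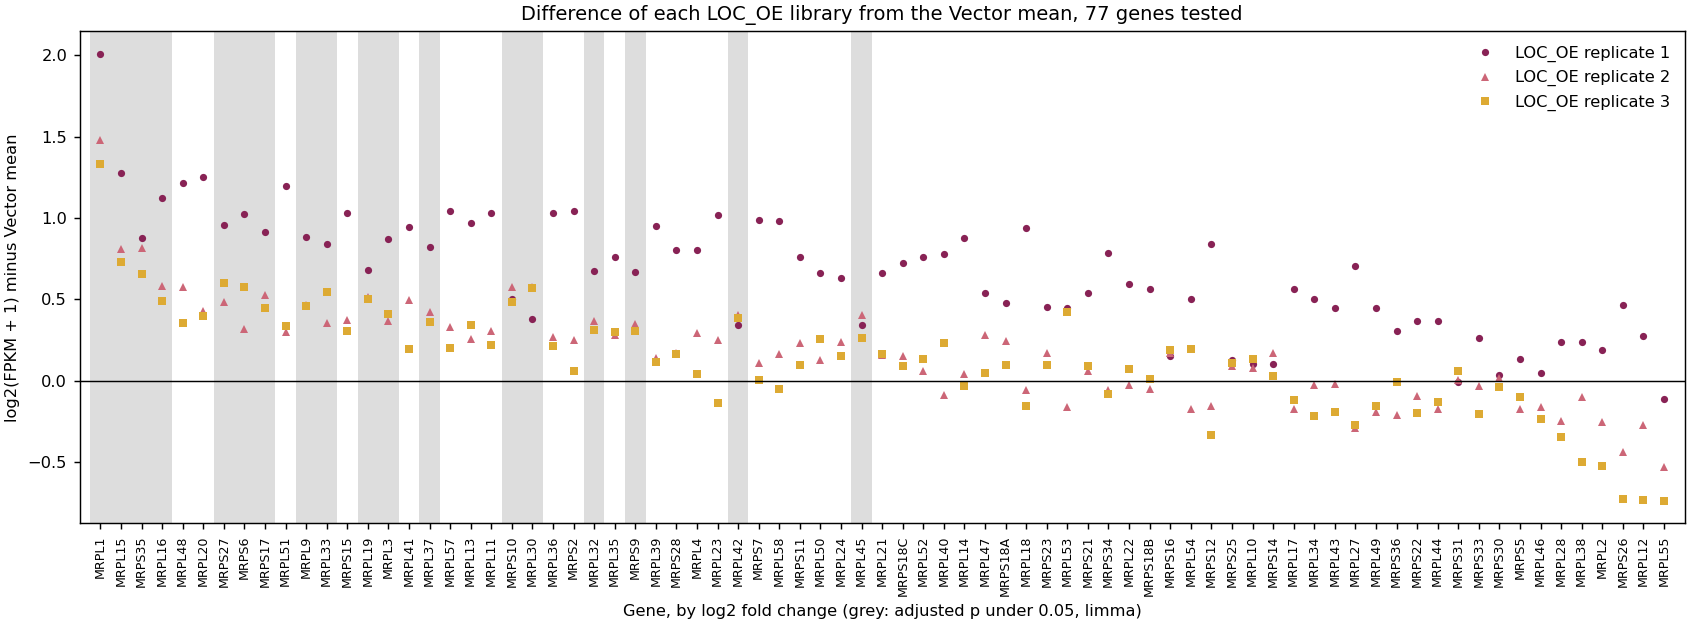
Difference of each LOC_OE library from the Vector mean in log2(FPKM + 1) for the 77 members tested, ordered by log2 fold change, with circles, triangles and squares for LOC_OE replicates 1, 2 and 3 and grey bands at members with an adjusted p under 0.05. The circles of replicate 1 lie above the other symbols in most genes (69 of 77), and towards the right end replicates 2 and 3 lie mostly below 0.

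Without LOC_OE replicate 1, 28 members passed as higher and 5 as lower, where 19.4% of all genes passed as higher and 16.1% as lower. The shares among members were 36.4% and 6.49%. All 18 members that rose in the full comparison were among the 28. With a fold change of at least 1.5, 3 were higher and 1 was lower, against 4.56% and 5.84% of all genes, so the changes that remained were mostly small. The median log2 fold change was 0.13 (all genes 0.011), and 55 members were above 0. Every other single omission lowered the count of members that rose: to 3, 2 and 2 without Vector replicate 1, 2 or 3, and to 8 and 12 without LOC_OE replicate 2 or 3. The counts over all genes fell with them, to 346, 144, 199, 782 and 1149 genes higher.

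In 4 of the 18 members LOC_OE replicate 1 was not the highest library, and they are named here after their values were seen. MRPS10, the counterpart of bacterial S10, had 28.8, 25.9 and 28.0 FPKM in Vector and 39.3, 41.4 and 38.8 FPKM in LOC_OE. Its means were 27.6 ± 1.53 and 39.9 ± 1.38 FPKM (SD, n = 3), and the log2 fold change was 0.52 (SE 0.080, adjusted p = 0.0111). MRPL30 had 21.3, 18.8 and 21.7 FPKM against 27.0, 31.1 and 31.0 FPKM (0.51, adjusted p = 0.0186). MRPL42 had 5.18, 5.26 and 5.91 FPKM against 7.17, 7.52 and 7.42 FPKM (0.38, adjusted p = 0.0244). MRPL45, which lies at the exit tunnel and binds the ribosome to the inner membrane, had 30.6, 27.6 and 27.7 FPKM against 36.5, 38.1 and 34.6 FPKM (0.34, adjusted p = 0.0373). In these 4 the LOC_OE libraries agreed within a few FPKM, and none of their values fell among the controls.

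**Figure D4:**
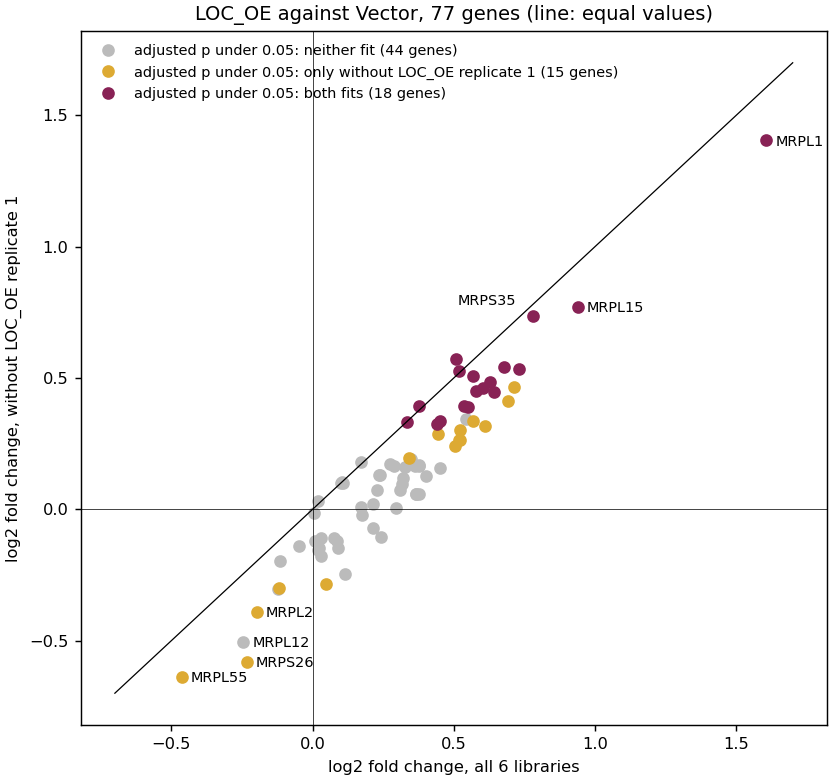
Log2 fold change of LOC_OE against Vector in all 6 libraries (horizontal) and without LOC_OE replicate 1 (vertical) for the 77 members tested, coloured by the fits in which the adjusted p was under 0.05. Most points lie below the line of equal values, 18 members passed in both fits, and MRPL55, MRPS26 and MRPL2 are among those lower without that library.

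The members that were lower without LOC_OE replicate 1 were MRPL55, MRPS26, MRPL2, MRPL28 and MRPL27. MRPL55 (ENSG00000162910, chromosome 1, 228106679 to 228109312, minus strand), a large subunit protein with a bacterial counterpart, was the only member whose LOC_OE libraries were all below the Vector libraries. It had 20.2, 20.1 and 19.0 FPKM in Vector and 18.2, 13.4 and 11.4 FPKM in LOC_OE, and its log2 fold change was -0.46 (SE 0.16, adjusted p = 0.089) in all libraries and -0.64 (adjusted p = 0.00276) without replicate 1. MRPS26 belonged to the 3 members with the largest spread between LOC_OE libraries, together with MRPS12 and MRPL18. MRPS26 had 57.6, 63.1 and 58.8 FPKM in Vector and 82.7, 43.9 and 35.8 FPKM in LOC_OE. Replicate 1 was above every control and the other LOC_OE libraries were below every control. The log2 fold change was -0.23 (adjusted p = 0.602) with all libraries and -0.58 (adjusted p = 0.00716) without replicate 1.

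MRPS12, the counterpart of the bacterial S12 of the decoding centre, had 32.3, 29.7 and 28.0 FPKM against 54.3, 26.7 and 23.6 FPKM. Its values without replicate 1 lay below the controls, and that difference did not pass (-0.25, adjusted p = 0.0651). MRPL18 had 35.4, 32.8 and 34.4 FPKM against 66.5, 32.9 and 30.6 FPKM, so that only replicate 1 stood outside the range of the controls by a wide margin. The spread was larger in LOC_OE for the family as a whole: the median SD over 3 libraries on log2(FPKM + 1) was 0.083 in Vector and 0.33 in LOC_OE, where over all genes it was 0.088 and 0.20. Complete separation of the groups, with every LOC_OE library above every Vector library, was seen in 37 members (48.1%), where 24.4% of all genes showed it. The reverse was seen in 1 member (1.3%), where 20.9% of all genes showed it.

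Some members were named because their place or homology differs from their symbol. MRPL55, described above, belongs to them and was lower at an unadjusted p of 0.0255 (limma). Of the 5 given here, none passed (limma), with or without LOC_OE replicate 1. Others named for this reason did pass without it, MRPL55 as lower (adjusted p = 0.00276) and MRPL57 as higher (adjusted p = 0.0314). With all libraries, 10.7% of all genes tested rose and 9.74% fell. Without LOC_OE replicate 1, 19.4% of all genes were higher and 16.1% lower. Of the 5 given here, 0 were past an unadjusted p of 0.05 or called by voom. MRPS30, a large subunit protein despite its name, had 16.5, 14.9 and 15.6 FPKM in Vector and 16.1, 15.8 and 15.2 FPKM in LOC_OE, a log2 difference of 0.0034 with an SE of 0.076. MRPS36 had 9.65, 10.0 and 10.4 FPKM against 12.6, 8.52 and 9.96 FPKM. The 3 MRPS18 genes encode related proteins of which MRPS18A sits in the large subunit and the others in the small one. MRPS18A had 18.8, 18.0 and 15.7 FPKM against 24.6, 20.8 and 18.7 FPKM (0.27, adjusted p = 0.167). MRPS18B had 48.0, 47.0 and 46.4 FPKM against 70.0, 45.4 and 47.5 FPKM (0.17, adjusted p = 0.498). MRPS18C had 2.78, 2.43 and 2.14 FPKM against 4.69, 2.83 and 2.66 FPKM (0.32, adjusted p = 0.261). The groups overlapped in all 3, by a narrow margin in MRPS18A (18.7 in LOC_OE against 18.8 FPKM in Vector).

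MRPL47, the counterpart of bacterial L29 at the exit tunnel, had 24.2, 22.4 and 22.0 FPKM against 33.6, 27.9 and 23.7 FPKM (0.29, adjusted p = 0.173). MRPL57 had 22.4, 21.2 and 19.9 FPKM against 44.6, 26.8 and 24.5 FPKM (0.52, adjusted p = 0.139). MRPL58, a peptidyl-tRNA hydrolase that became part of the large subunit, had 15.9, 18.8 and 16.9 FPKM against 34.8, 19.3 and 16.5 FPKM (adjusted p = 0.357). MRPS28 had 5.57, 4.98 and 3.73 FPKM against 8.94, 5.42 and 5.39 FPKM (0.38, adjusted p = 0.246). None of these 4 passed, where 10.7% of all genes tested rose and 9.74% fell. Past an unadjusted p of 0.05 in limma, or called by voom, there were 0. Without LOC_OE replicate 1 (limma), MRPL57 was higher (0.26, adjusted p = 0.0314) and MRPL47, MRPL58 and MRPS28 did not pass. In that fit 19.4% of all genes were higher and 16.1% lower.

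The stalk of the large subunit recruits the translation factors, and 0 of its 5 genes passed (limma), where 10.7% of all genes tested rose. At an unadjusted p under 0.05, 1 was higher, where 3111 of 16061 genes were, and voom called 0. Without LOC_OE replicate 1, 1 of the 5 was higher, MRPL11 (0.26, adjusted p = 0.0248), where 19.4% of all genes were. MRPL11, at the base, had 16.8, 15.2 and 15.1 FPKM against 33.1, 19.6 and 18.5 FPKM (0.52, adjusted p = 0.136). It was the only one of the 5 with separated groups. MRPL10 had 33.1, 28.95 and 29.6 FPKM against 32.9, 32.2 and 33.6 FPKM. MRPL12, the counterpart of bacterial L7/L12 and the member with the largest share of exon bases in common with another gene, had 6.64, 11.4 and 8.26 FPKM against 10.6, 6.92 and 4.77 FPKM. MRPL53 had 1.31, 1.92 and 1.84 FPKM against 2.65, 1.39 and 2.58 FPKM, and MRPL54 had 8.66, 13.7 and 11.7 FPKM against 16.2, 9.76 and 12.9 FPKM.

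Summed over all members, the Vector libraries held 1603, 1558 and 1502 FPKM and the LOC_OE libraries 2628, 1807 and 1724 FPKM. As a share of the FPKM of all genes these were 0.571%, 0.583% and 0.569% in Vector and 0.729%, 0.583% and 0.564% in LOC_OE. On that scale only LOC_OE replicate 1 was outside the range of the controls by more than 0.01 percentage points. The sum over large subunit members divided by that over small subunit members was 1.88, 1.90 and 1.86 in Vector and 2.02 in each LOC_OE library. This ratio stayed higher in each LOC_OE library without MRPL15 (1.79, 1.81 and 1.76 against 1.88, 1.87 and 1.87). Without MRPS26 the groups were almost in contact (2.10, 2.15 and 2.09 against 2.23, 2.18 and 2.15).

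Of 5 ribosomal proteins of mitochondria that carry another kind of symbol, 2 rose (40%, where 10.7% of all genes tested rose). Without LOC_OE replicate 1, 2 were higher and 1 was lower (40% and 20%, where 19.4% and 16.1% of all genes were). DAP3, a GTP-binding protein of the small subunit, had 33.0, 29.8 and 31.5 FPKM in Vector and 47.8, 44.7 and 45.4 FPKM in LOC_OE (log2 fold change 0.53, SE 0.079, adjusted p = 0.010). PTCD3, a pentatricopeptide repeat protein, had 10.8, 9.95 and 10.1 FPKM against 13.9, 13.2 and 13.1 FPKM (0.35, adjusted p = 0.0237). In both, the LOC_OE libraries lay close together. AURKAIP1 (55.1, 62.2 and 53.9 against 91.2, 48.4 and 46.7 FPKM) and GADD45GIP1 (44.5, 41.4 and 38.7 against 72.5, 38.1 and 31.0 FPKM) resembled MRPS26, with replicate 1 above and the other LOC_OE libraries below the controls. For CHCHD1 the log2 difference was 0.18 (adjusted p = 0.473).

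Among 20 mitochondrial translation factors, 8 rose, and none fell by limma, by voom or at an unadjusted p under 0.05 (median log2 fold change 0.35, 18 above 0). The 8 are 40% of the list, where 10.7% of all genes rose. Without LOC_OE replicate 1 the count was 10 higher and 0 lower (50% and 0%, where 19.4% and 16.1% of all genes were). TSFM, the exchange factor of the elongation factor Tu, had 9.84, 9.17 and 8.90 FPKM in Vector and 25.2, 17.9 and 17.9 FPKM in LOC_OE (1.03, SE 0.14, adjusted p = 0.00885). GFM1, the elongation factor that moves the ribosome along the message, had 7.82, 7.11 and 7.37 FPKM against 13.2, 12.7 and 11.9 FPKM (0.69, SE 0.080, adjusted p = 0.00645). PDF, which removes the formyl group from the new peptide, rose by 0.72 on the log2 scale (adjusted p = 0.0106). The groups of all 3 were well separated in every library.

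Of 28 genes for mitoribosome assembly and rRNA modification, 3 rose and 1 fell, with a median log2 fold change of 0.060. These shares were 10.7% and 3.57%, where 10.7% of all genes rose and 9.74% fell, so the share that rose was that of genes in general. Without LOC_OE replicate 1, 6 were higher and 3 lower (21.4% and 10.7%, where 19.4% and 16.1% of all genes were). Those that rose were DDX28, an RNA helicase of large subunit assembly (0.72, adjusted p = 0.032), MTERF3 (0.65, adjusted p = 0.0127) and TRUB2, a pseudouridine synthase (0.48, adjusted p = 0.0329). YBEY, an endoribonuclease of small subunit rRNA, had 11.4, 11.7 and 10.3 FPKM in Vector and 8.61, 6.97 and 8.21 FPKM in LOC_OE (-0.44, adjusted p = 0.0286). Of 13 genes for mitochondrial transcription and RNA processing that could be tested, 5 rose, and none fell by limma, by voom or at an unadjusted p under 0.05 (median 0.38). The 5 are 38.5% of the list, where 10.7% of all genes rose. Without LOC_OE replicate 1 the count was 6 higher and 1 lower (46.2% and 7.69%, where 19.4% and 16.1% of all genes were). Those that rose included PNPT1, a polynucleotide phosphorylase (0.75, adjusted p = 0.0298), TFAM, which packages mitochondrial DNA and starts its transcription (0.72, adjusted p = 0.0117), and GRSF1, an RNA granule protein (0.70, adjusted p = 0.0146).

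**Figure D5:**
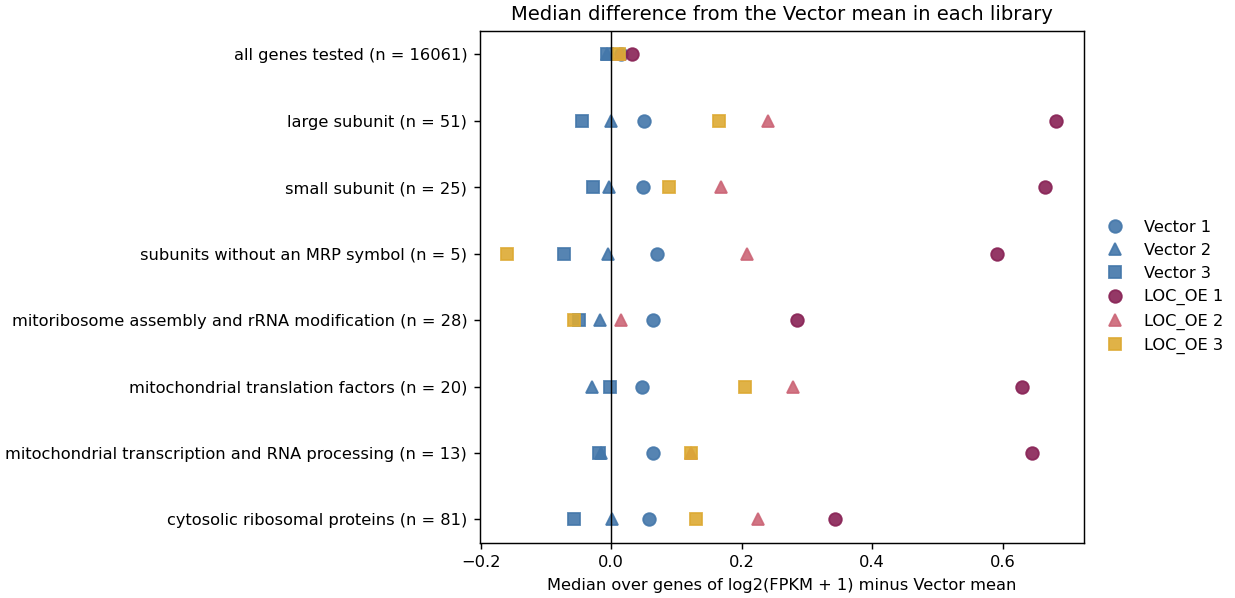
Median over genes of the difference from the Vector mean in log2(FPKM + 1), for all genes tested and for each list, with one symbol per library. For both subunits LOC_OE replicate 1 lies far to the right (0.68 and 0.66) and replicates 2 and 3 lie closer to 0, while all 3 medians of all genes stay near 0.

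The 2 rRNAs of the mitochondrial ribosome were also measured. MT-RNR1, of the small subunit, had 539, 400.3 and 483 FPKM in Vector and 821, 668 and 869 FPKM in LOC_OE (log2 fold change 0.73, SE 0.16, adjusted p = 0.0261). MT-RNR2, of the large subunit, had 1070, 898 and 998 FPKM against 1159, 1513 and 1641 FPKM (0.53, adjusted p = 0.0662). In both the groups were separated, and unlike most of the proteins the highest LOC_OE library was replicate 3. The mitochondrial genome took 16.9% to 18.4% of the summed FPKM in Vector and 19.9% to 22.2% in LOC_OE. Its part in the results for the nuclear genes was not tested.

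Cytosolic ribosomal proteins showed the same order of LOC_OE libraries at the median. Of 81 tested, 20 rose and 2 fell (24.7% and 2.47%, where 10.7% and 9.74% of all genes did). Without LOC_OE replicate 1, 33 were higher and 5 lower (40.7% and 6.17%, where 19.4% and 16.1% of all genes were). The median log2 fold change was 0.24, and the median differences from the Vector mean were 0.34, 0.23 and 0.13 in LOC_OE replicates 1, 2 and 3. Replicate 1 thus stood less far from the others than in the mitochondrial set, a difference that was not tested.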

How the data were processed

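The 6 RNA libraries of RKO cells, 3 Vector and 3 LOC_OE, were grouped by their labels. Total RNA was extracted with TRIzol, libraries were made with a NEBNext Ultra kit and sequenced on a NovaSeq instrument. The submitters' processing notes name HISAT2 2.0.4, StringTie 1.3.0 and hg38. The annotation, the handling of strand and the selection of RNA are not given in the sources used here, so reads of genes that overlap, or of close copies, may have been divided between them.

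The authors deposited FPKM for 58735 genes, all matched to GENCODE version 29. Multiplied by merged exon length, 100% of the deposited FPKM were whole multiples of the value of 1 read (within 0.01 reads), which gave 15008842 to 18410231 reads per library. Each divisor was the geometric mean of the read totals multiplied by a median-of-ratios size factor, so libraries were already on one scale. Floors cover counting error only.

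The 16061 genes that reached 0.5 FPKM in 3 or more libraries were tested with limma 3.58.1 in R 4.3.3 on log2(FPKM + 1) with a variance trend and Benjamini-Hochberg adjustment over all of them. A gene rose, fell or passed at an adjusted p under 0.05. For genes of low level, fold changes come out smaller on this scale. The steps were tested on simulated data.

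The members, the gene lists and the motifs were chosen with earlier results of these data known. Named are the 6 largest increases and decreases that passed, the 5 highest and 5 lowest members, the 3 with the largest spread in LOC_OE, members of unusual place or homology, the stalk, subunits with other symbols, up to 3 changes per direction of each further list, the rRNAs and LOC101927668. Others are said to have been chosen after their values were seen. Alternatives were another pseudocount, filters, 3 rescalings, no trend, array weights, a replicate block, the omission of single libraries, a 1.5-fold minimum, p without adjustment, and limma voom for 21079 genes on recovered reads.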

Additional observations from a re-analysis of the deposited data

How the results depend on the processing

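The count of members that rose was 18. It became 9 with no filter on low FPKM, 9 with the same sum of FPKM, 36 with array weights and 28 with unadjusted p. It ranged from 2 to 28 when 1 library was left out. The counts over all genes moved with it. From 1712 of 16061 genes higher they became 1052 of 31123 with no filter and 713 of 16174 with the same sum. They became 4362 with array weights and 3111 with unadjusted p. The count of members that fell was 0, and became 3 with the same sum of FPKM (MRPL2, MRPL55 and MRPS5), 2 with quantile normalization, 6 with array weights and 1 with unadjusted p, and ranged from 0 to 5 with a library left out. Over all genes the 1565 that fell became 3163, 1802, 3724 and 2744 under these settings, in the same order. With a fold change of at least 1.5 the 8 members became 4 with no filter, 2 with the same sum, 5 with quantile normalization and 5 with array weights (2 to 10 with a library left out), and the count of lower members became 1 with the same sum and 1 with quantile normalization (0 to 1). Over all genes the 743 higher became 507, 259, 599 and 935 in the same order. The 896 lower became 1793 with the same sum and 826 with quantile normalization. The median log2 fold change of the members was 0.08 with the same sum, 0.19 with quantile normalization, 0.17 with array weights and 0.13 to 0.42 with a library left out. All 18 members that rose were above 0 under each of these settings.

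For subunits without an MRP symbol the 2 that rose became 1 with the same sum, 1 with quantile normalization, 1 with the replicate block and 0 at a fold change of at least 1.5 (0 to 2 with a library left out, and 0 to 1 lower). For assembly and rRNA modification the 3 that rose became 1 with no filter, 8 with array weights, 5 with voom and 7 with unadjusted p (0 to 6), and the 1 that fell became 5 with the same sum, 5 with array weights, 0 with the replicate block and 0 at a fold change of at least 1.5 (0 to 3). For translation factors the 8 that rose became 4 with the same sum, 13 with array weights and 4 at a fold change of at least 1.5 (1 to 10), and 1 fell with the same sum and 1 with array weights (0 with any library left out). For transcription and RNA processing the 5 that rose became 3 with the same sum and 3 at a fold change of at least 1.5 (0 to 6), and 2 fell with the same sum, 1 with quantile normalization and 1 with array weights (0 to 1).

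Over all 77 members tested, the split of 69 above 0 and 8 below became 47 and 30 with the same sum of FPKM. It became 54 and 23 with quantile normalization and 53 and 24 with array weights. Among the genes named by the rules above, log2 fold changes of some that had not passed changed sign under these 3 settings. With the same sum of FPKM they were -0.045 for MRPS34, -0.18 for MRPS33, -0.14 for MRPS12, -0.012 for MRPL18, -0.084 for MRPS18B, -0.24 for MRPS30, -0.21 for MRPS36, -0.15 for MRPL10, -0.072 for MRPL54, -0.21 for AURKAIP1, -0.069 for CHCHD1 and -0.17 for GADD45GIP1. With quantile normalization they were -0.071 for MRPS34, 0.016 for MRPL46, 0.0057 for MRPL38, -0.13 for MRPS12, -0.020 for MRPL18, -0.096 for MRPS18B, -0.13 for MRPS30, -0.049 for MRPS36, -0.13 for MRPL10, -0.21 for AURKAIP1 and -0.18 for GADD45GIP1. With array weights they were -0.049 for MRPS34, -0.11 for MRPL53, -0.023 for MRPS33, -0.15 for MRPS12, -0.038 for MRPL18, -0.032 for MRPS18B, -0.18 for MRPS36, -0.18 for MRPL54, -0.24 for AURKAIP1 and -0.13 for GADD45GIP1. With a library left out the values ranged from both sides of 0, -0.26 to 0.22 for AURKAIP1, -0.26 to 0.34 for GADD45GIP1, -0.11 to 0.44 for MRPL18, -0.30 to 0.068 for MRPL38, -0.25 to 0.34 for MRPS12, -0.021 to 0.29 for MRPS18B, -0.58 to 0.013 for MRPS26, -0.029 to 0.037 for MRPS30, -0.12 to 0.11 for MRPS33, -0.071 to 0.36 for MRPS34 and -0.11 to 0.15 for MRPS36. The cause was not tested.

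Same-numbered libraries deviated together by a correlation of 0.111, -0.034 and 0.116 for numbers 1, 2 and 3. Pairs of unlike number had -0.128 to 0.058, so numbers 1 and 3 correlated best with their own number and number 2 did not. Whether same-numbered libraries were handled together is not given in the sources used here. These few correlations cannot settle it, and the main test did not pair the libraries. With the replicate block 12 members rose, 6 of them by at least 1.5-fold, and 1125 genes in all rose and 940 fell. With 3 libraries per group, 1 of which stood apart, the spread between LOC_OE libraries limits what could be detected, and MRPS24 was too low to test.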
